A study of Mus musculus with 360 samples.

Results

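Reprogrammed supporting cells 1 is the authors' name for cluster 1 of a single-cell survey of the adult mouse cochlea, and it holds 54 of the 360 cells profiled. Its members were taken as the authors' deposited annotation gives them, by cluster number. The annotation places 341 cells in 9 clusters, and 3 of these clusters, numbers 1, 2 and 7, hold GAP cells alone. Cluster 1 was compared with cluster 2, named reprogrammed hair cells (51 cells), and with cluster 7, named reprogrammed supporting cells 2 (20 cells).

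All cells came from mice with Fbxo2CreERT2, a Cre recombinase that tamoxifen activates, expressed from the Fbxo2 locus, and with the Rosa26-tdTomato reporter. GAP mice (180 cells) also carried Rosa26-GAP, an allele of Gfi1, Atoh1 and Pou4f3, and control mice (180 cells) did not. Both genotypes received tamoxifen at 3 weeks of age and were dissociated with papain at 5 weeks, and cells were then placed singly in 96-well plates by a sorter gated on EpCAM and tdTomato. Recombination is thus limited to cells in which Fbxo2 is active, and the starting cell type of a given member is not recorded. Animals are not named in the labels. Each genotype therefore counts as 1 sample, cells are not replicates, and no test was made between clusters.

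Hair cells turn sound into electrical signals through a bundle of stereocilia and pass them on at ribbon synapses, and supporting cells surround them, couple through gap junctions and build the tectorial membrane. In development Atoh1, a basic helix-loop-helix factor, starts the hair cell programme, and Pou4f3 and Gfi1 carry it on. Cells that take the hair cell fate present Notch ligands, and Notch activity in their neighbours holds those neighbours in the supporting fate. In the mature cochlea of mammals supporting cells do not replace lost hair cells, and these factors are used to try to convert them.

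The promoter windows below are shown because Ccer2, Anpep and Cyp2s1 are among the genes that set cluster 1 apart, and because Atoh1, which the allele supplies, binds E-boxes. The motifs searched were CAGCTG, its own reverse complement, and CAGATG, read on both strands, in the 250 bases before each start site. The sequences are from RefSeq on GRCm38.p6, each given 5′ to 3′ on the gene's strand, with matches in capitals. Ccer2 lies on the plus strand of chromosome 7 and the window is chr7:28755924-28756173. Anpep lies on the minus strand with the window chr7:79848211-79848460. Cyp2s1 lies on the minus strand with the window chr7:25816526-25816775.
Ccer2: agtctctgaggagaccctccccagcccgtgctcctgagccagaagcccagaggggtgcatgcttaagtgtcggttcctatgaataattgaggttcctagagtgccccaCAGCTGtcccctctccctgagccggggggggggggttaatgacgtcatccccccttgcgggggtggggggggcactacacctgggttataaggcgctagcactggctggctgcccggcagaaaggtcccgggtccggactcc
Anpep: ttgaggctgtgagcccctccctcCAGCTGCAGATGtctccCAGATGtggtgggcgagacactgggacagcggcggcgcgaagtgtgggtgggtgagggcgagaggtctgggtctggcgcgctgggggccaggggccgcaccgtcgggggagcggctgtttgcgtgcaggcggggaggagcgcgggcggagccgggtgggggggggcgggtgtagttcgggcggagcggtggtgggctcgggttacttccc
Cyp2s1: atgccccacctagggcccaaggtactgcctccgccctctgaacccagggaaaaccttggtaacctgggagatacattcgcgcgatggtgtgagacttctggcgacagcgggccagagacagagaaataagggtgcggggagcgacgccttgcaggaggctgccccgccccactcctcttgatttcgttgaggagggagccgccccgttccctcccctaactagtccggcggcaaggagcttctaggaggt
The Ccer2 window held 1 match, which begins at position -142 from the start site, and the Anpep window held 3, at -227, -221 and -210. The Cyp2s1 and Otoa windows held 0, and those of Itga4 and Gdf11 held 1 each, at -125 and -153. The windows of the allele genes Atoh1 and Gfi1 were also searched and held 0. Of all 32851 RefSeq windows of this length 25.5% held a match. Counted per gene over any of its windows, 28.2% of 27025 genes held one, and so did 5 of the 11 genes that matched RefSeq among the 12 highest against both clusters. A match describes the letters of the window and is not a measured binding site.

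Cluster 1 was the deepest of the 3 clusters. Its cells held a median of 34991.5 UMIs (range 12789 to 42818) against 28271 in cluster 2 and 15521.5 in cluster 7, and 1774728 UMIs in all. Shares of cells with a gene are therefore given with every cell thinned to 8000 UMIs, which kept all members of the 3 clusters. At that depth a member had a median of 3107.5 genes, against 3062 in cluster 2, 2808.5 in cluster 7 and 2678 in control cells. The titles carry letters, read as plates, and the cells of cluster 1 are 28 from letter C and 26 from letter D. Of the Y-linked genes Kdm5d, Uty, Ddx3y and Eif2s3y, 0 of 92 cells of letter C had a UMI and 76 of 88 cells of letter D had at least 1. In letters A and B, which hold the control cells, 53 of 91 and 49 of 89 cells had one. Within cluster 1 these 4 genes summed to 0 UMIs in letter C and to 177.8 CPM in letter D, where CPM is the UMIs of a gene over all UMIs of the cells, scaled to the same total for every set. Plate and presence of Y-linked transcripts cannot be told apart among GAP cells, and the values of the main genes are therefore also given per letter.

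The markers named for cluster 1 were present in nearly all of its cells. Atoh1 was at 1097 CPM in the summed UMIs of cluster 1 (95% interval for counting error 1049 to 1147), at 1071 in letter C and 1127 in letter D. Over single cells it ran from 0 through a median of 1099 to 2700 CPM. It was at 815 CPM in cluster 2, at 503 CPM in cluster 7 and had 0 UMIs in control cells. The level in cluster 1 was 1.35-fold that of cluster 2 (1.25 to 1.45) and 2.18-fold that of cluster 7 (1.86 to 2.56), and the cells of the 3 clusters overlapped. Gene-level counts do not separate the transgene from the cell's own copy.

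Pou4f3, the factor needed for hair cells to mature and survive, was at 749 CPM in cluster 1, at 791 in letter C and 700 in letter D. Its cells ran from 31.3 through 569 to 2093 CPM. The level was 1.24-fold that of cluster 2 (602 CPM) and 3.37-fold that of cluster 7 (222 CPM). Gfi1, a zinc finger repressor, was at 285 CPM, at 273 in letter C and 298 in letter D, with cells from 0 through 227 to 879 CPM. It was 1.49-fold higher than in cluster 2 (190 CPM) and 2.7-fold higher than in cluster 7 (105.3 CPM), and control cells had 0.25 CPM. The order cluster 1, cluster 2, cluster 7 held for all 3 genes in letter C and in letter D, while single cells of the clusters overlapped throughout.

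Nearly every member expressed the whole set. All 3 genes together had UMIs in 96.3% of the 54 cells with all UMIs counted and in 66.7% at 8000 UMIs (exact interval 52.5 to 78.9). The thinned share was 52.9% in cluster 2 and 25% in cluster 7, and its interval overlaps that of cluster 2. It was 0% in the control cells with at least 8000 UMIs (exact upper limit 2.06%) and 0 of the 38 GAP cells in clusters that also hold control cells. With all UMIs counted, at unequal depth, 88.2% of cluster 2 and 30% of cluster 7 held all 3 genes. So did 9 of these 38 GAP cells and 0% of control cells. At 8000 UMIs, Atoh1 was found in 94.4% of members, Pou4f3 in 87% and Gfi1 in 75.9%. In control cells, whose median depth was 21280 UMIs, the shares were 0%, 0% and 0.565%. In the 38 GAP cells of clusters with control cells (median 24124 UMIs) they were 44.7%, 39.5% and 18.4%. With all UMIs counted the members' shares were 98.1%, 100% and 96.3%. Within cluster 1 the 3 genes followed each other over cells, with Spearman correlations of 0.51 for Atoh1 and Pou4f3, 0.64 for Atoh1 and Gfi1 and 0.54 for Pou4f3 and Gfi1 (n = 54 cells, which share 2 plates and the division by each cell's total).

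**Figure D1:**
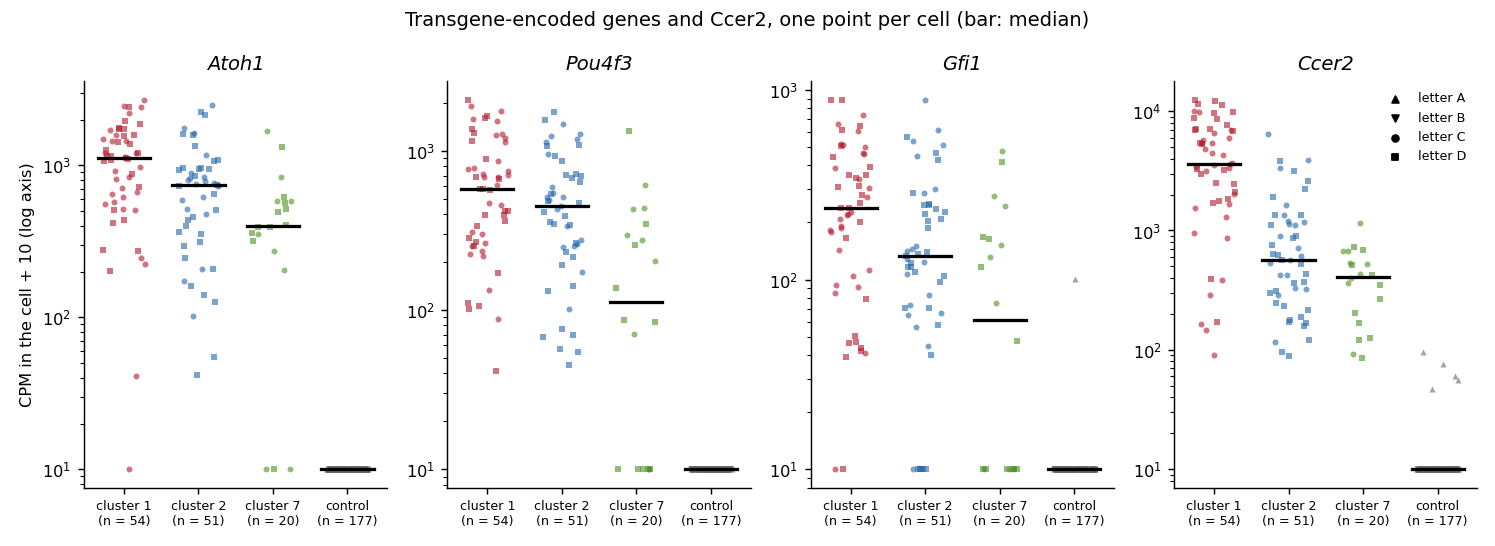
CPM of Atoh1, Pou4f3, Gfi1 and Ccer2 in each cell plus 10, on log axes, for clusters 1, 2 and 7 and the control cells with at least 8000 UMIs. Point shapes are the letters and bars are medians. Cluster 1 had the highest median of all 4 genes, and Ccer2 separated it most, with a median of 3611 CPM against 554 in cluster 2.

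Ccer2, which encodes a coiled-coil protein of little-known function, was the most abundant of the genes that were higher in cluster 1 than in both other clusters. The gene lies at chr7:28756174-28758968 on the plus strand and is protein-coding in GENCODE M21. It was at 4659 CPM in cluster 1 (4559 to 4760), at 3687 in letter C and 5772 in letter D. Its cells ran from 80.4 through 3611 to 12496 CPM. Cluster 2 was at 1048 CPM with cells from 78.3 to 6364, and cluster 7 at 439 CPM with cells from 76.1 to 1146. The level in cluster 1 was thus 4.45-fold that of cluster 2 (4.21 to 4.7) and 10.6-fold that of cluster 7 (9.03 to 12.6), and it was 1.25 CPM in control cells. The letters of cluster 1 both stood above both letters of the other clusters, while the lowest cells of cluster 1 lay among those of clusters 2 and 7. At 8000 UMIs 100% of members had a Ccer2 UMI, 94.1% of cluster 2, 100% of cluster 7 and 0% of control cells. Unlike the 3 allele genes among themselves, Ccer2 hardly followed Atoh1 over the cells of cluster 1, with a Spearman correlation of 0.1.

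Against cluster 2, 921 of 10263 genes with at least 10 CPM in either cluster were higher in cluster 1 by 2-fold or more, which is 8.97%, and 1191 were lower, which is 11.6%. Ratios compare CPM + 1 on the log2 scale, and their median over these genes was -0.05. Of the higher genes 863 pointed the same way in both letters, and of the lower genes 1013 did. Against cluster 7, 1985 of 10233 genes were higher (19.4%) and 1749 lower (17.1%), with a median of 0.00. Of these higher genes 1877 pointed the same way in both letters, and of the lower genes 1250 did. The summed levels are made of the 2 letters, so part of this agreement is built in for both comparisons. The shallower cluster 7 has its limit of 3 counts at 8.77 CPM, against 1.69 CPM in cluster 1, and the part of this difference in depth in the larger counts was not tested. In all 383 genes were higher in cluster 1 than in both other clusters, and 273 were lower than in both.

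**Figure D2:**
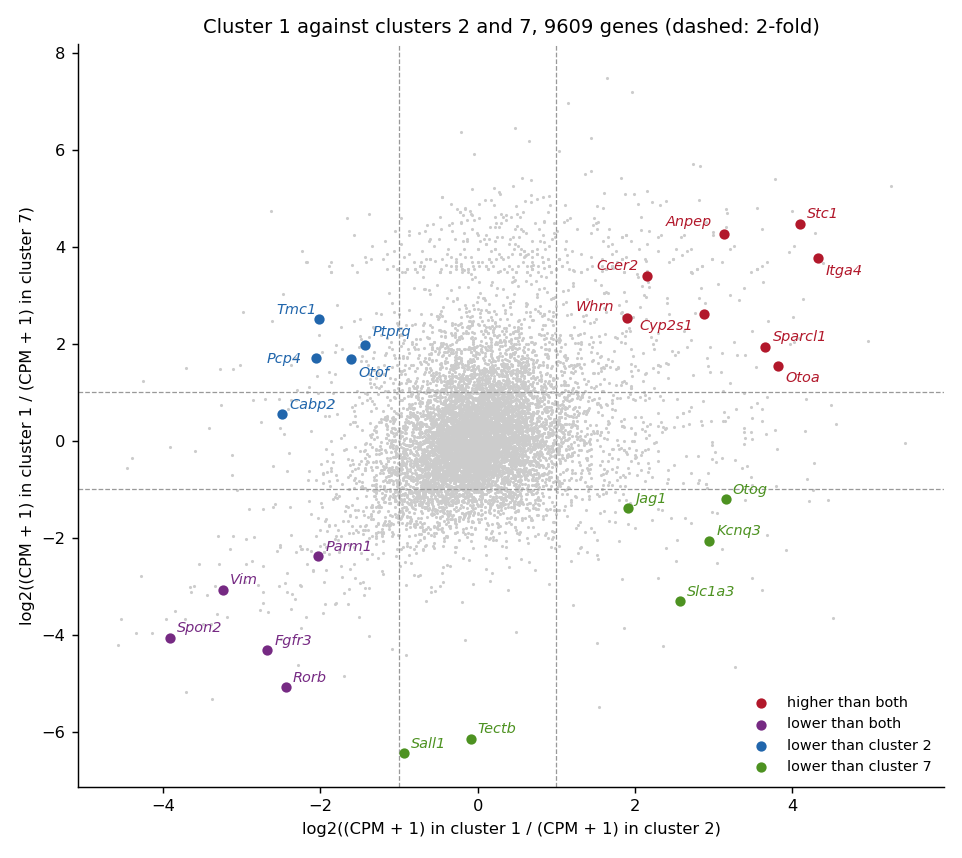
Log2 ratio of CPM + 1 in cluster 1 to cluster 2 (horizontal) against the ratio to cluster 7 (vertical), for 9609 genes measured in both comparisons, with dashed lines at 2-fold and named genes coloured by position. Both axes hold the same values of cluster 1, so the 2 ratios of a gene are not independent. Ccer2, Otoa, Stc1 and Itga4 lie in the upper right, hair cell genes such as Ptprq and Tmc1 to the left, and Slc1a3 and Tectb in the lower part.

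Among the 12 genes highest in cluster 1 against both clusters were Stc1, Itga4, Anpep, Chsy1, Sdk2 and Slit2. Stc1, stanniocalcin, a secreted glycoprotein of mineral balance, was at 217 CPM (258 in letter C and 169.3 in letter D) against 11.8 in cluster 2 and 8.77 in cluster 7. It had UMIs in 26 of 54 cells, and its highest cell was at 2258 CPM. Itga4, an integrin subunit, was at 171.9 CPM (161.4 and 184) against 7.61 and 11.7, or 22.6-fold and 14.7-fold. Its median cell was at 28.6 CPM and its highest at 2370. Both genes were thus high in some members and at 0 UMIs in others, and 28.5% of the Itga4 UMIs came from 1 cell.

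Anpep, an aminopeptidase of the cell surface, was at 358 CPM (264 in letter C and 467 in letter D) against 40.2 in cluster 2 and 17.5 in cluster 7. At 8000 UMIs it was found in 51.9% of members and in 2.26% of control cells. Ace, another surface peptidase, was at 134.1 CPM (93.9 and 180) against 15.9 and 5.85, and had 0 UMIs in control cells. Gdf11, a ligand of the TGF-beta family, was at 319 CPM (305 and 335) against 43.6 and 35.1. Chsy1, which builds chondroitin sulfate, was at 41.1 CPM against 2.08 in cluster 2 and 0 UMIs in cluster 7. Sdk2, a cell adhesion molecule, was at 101.4 CPM against 10.4 and 2.92, and Slit2, a secreted ligand of Robo receptors, at 78.3 against 7.61 and 8.77. Each of these 6 genes was higher in letter C and in letter D of cluster 1 than in the matching letters of both other clusters. For Anpep, Chsy1, Sdk2 and Slit2 the rule that named them required this, so it adds no support.

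More abundant genes also set cluster 1 apart. Cyp2s1, a cytochrome P450 enzyme, was at 2301 CPM (2213 in letter C and 2401 in letter D) against 312 in cluster 2 and 374 in cluster 7. Its cells ran from 61.9 through 2162 to 6332 CPM, and control cells were at 224 CPM. Otoa, otoancorin, which fixes the tectorial membrane to the cells of the spiral limbus, was at 992 CPM (895 and 1104) against 69.2 and 339. Its cells ran from 0 through 765 to 3651 CPM, and no cell of cluster 2 passed 237 CPM. Otoa was at 763 CPM in the summed control cells, with cluster 1 near that level and cluster 2 below it. Single control cells with at least 8000 UMIs ran from 0 to 3619 CPM, so this level covers unlike cells. Sparcl1, a matrix-associated glycoprotein, was at 903 CPM (856 and 957) against 70.6 and 234, and at 113.2 in control cells. Cryab, a small heat shock protein, was at 1010 CPM against 231 in cluster 2 and 526 in cluster 7, short of 2-fold against the latter.

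The genes lowest in cluster 1 against both clusters included Vim, the intermediate filament of many supporting cells. Vim was at 24.2 CPM in cluster 1 (12.7 in letter C and 37.5 in letter D) against 237 in cluster 2, 211 in cluster 7 and 170.4 in control cells. Its cells ran from 0 through 0 to 213 CPM, while the median was 35.3 in cluster 2 and 119.4 in cluster 7. Rorb, a nuclear receptor, was at 9.02 CPM against 53.3 and 339, and Spon2, a secreted matrix protein, at 1.69 against 39.5 and 43.9. Rlbp1, which binds retinaldehyde, was at 19.2 CPM against 69.9 and 208. Parm1, a membrane glycoprotein, was at 104.8 CPM against 430 and 550. These 5 genes were lower in both letters of cluster 1 than in either letter of the other clusters. The rule that named them required this for matching letters, so that part adds no support.

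Factors of hair cell fate were compared with cluster 2 first. Of 17 measured genes of this list 2 were higher in cluster 1 by 2-fold or more, 3 were lower and 12 lay between, with a median of 0.09, beside 8.97% higher and 11.6% lower among all genes. Rfx3, a factor of ciliogenesis that hair cells also use, was at 152.1 CPM against 142.6. Jag2, a Notch ligand of nascent hair cells, was at 225 against 190 CPM, and Mfng, a fringe enzyme of the Notch pathway, at 180 against 175.1. Mfng had 0 UMIs in control cells. Eya1, a transcriptional coactivator, was the higher exception at 801 CPM (817 in letter C and 784 in letter D) against 280. Lhx3, a LIM homeobox factor of hair cells, was a lower one at 1.13 CPM (2 UMIs) against 13.2. Gata3 was at 488 CPM against 936, short of 2-fold, with 346 in letter D against 1221 in letter D of cluster 2. In letter C the order was reversed, with cluster 1 the higher, so the letters did not share a direction.

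Summed over cells, 19 genes of the hair bundle were lower in cluster 1 than in cluster 2. Of 35 measured genes 19 were lower by 2-fold or more and 2 were higher, beside 11.6% and 8.97% of all genes, and the median log2 ratio was -1.23. It was -1.51 in letter C and -1.08 in letter D. The sum of the bundle genes in the median cell did not show this order, at 4439 CPM in cluster 1 and 4162 in cluster 2. The highest cells were at 9757 and 24859. Abundant genes weigh most in such a sum, with Myo6 at 1481 of the 5074 CPM of cluster 1. Gene by gene, 29 of 35 were found in a smaller share of cluster 1 at 8000 UMIs. Lhfpl5, a subunit of the mechanotransduction complex, was at 4.51 CPM against 92.8, and Tmc1, its channel protein, at 21.4 against 89.3. Ptprq, the phosphatase of the shaft connectors, was at 221 against 598 CPM, and Loxhd1, a stereocilia protein, at 14.1 against 69.9. Of the 25 Loxhd1 UMIs of cluster 1, 88% were in 1 cell. Myo7a, the myosin most used to mark hair cells, was at 128.5 CPM against 452 and was found in 38.9% against 72.5% of cells at 8000 UMIs. It falls outside the rule for named genes and was chosen after its values were seen. Part of the bundle was not lower: Myo6 was at 1481 CPM against 1200, Pcdh15 of the tip link at 379 against 273 and Tmie of the transduction complex at 136.9 against 90.7. Whrn, the scaffold whirlin, was higher in cluster 1 at 157.2 CPM (177.2 in letter C and 134.2 in letter D) against 41.5, and Ush1c, harmonin, at 212 against 100.

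Of 21 measured synapse and channel genes 12 were lower in cluster 1 than in cluster 2 and 3 were higher, with a median of -1.36, beside 11.6% and 8.97% of all genes. Slc17a8, the glutamate transporter of inner hair cell synapses, had 1 UMI in cluster 1 against 29.8 CPM. Cabp2, a calcium sensor of the synapse, was at 30.4 CPM against 175.1, and Otof, otoferlin, needed for vesicle release, at 86.8 against 266. Pclo, a protein of the active zone, was at 303 against 669 CPM, and Pcp4, a regulator of calmodulin, at 136.4 against 571. The genes higher in cluster 1 were Ccer2, Calb2, a calcium buffer, at 23.7 against 2.77 CPM, and Chrna10, a subunit of the efferent acetylcholine receptor, at 23.1 against 7.61. Rasd2, a small GTPase near absent from control cells (1 CPM), was at 539 against 847 CPM.

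The number of hair cell genes per cell was close in clusters 1 and 2, and a group of cells of cluster 2 exceeded all members. Over the 91 hair cell genes of these lists other than the 3 of the allele, a member of cluster 1 had a median of 22 with a UMI at 8000 UMIs (15 to 34). A cell of cluster 2 had 23 (11 to 51), a cell of cluster 7 had 17.5, and a control cell 10 (6 to 18). Of the 51 cells of cluster 2, 11 had more than the highest member of cluster 1, 6 of them in letter C and 5 in letter D. Otof shows the same spread: it was found in 22.2% of members and in 29.4% of cluster 2 at 8000 UMIs, and the highest cells were at 826 and 2956 CPM. For Ptprq the median cell was at 69.1 CPM in cluster 1 and 65.9 in cluster 2, and the highest cells were at 1130 and 5422. Over the bundle list 29 of 35 genes were found in a smaller share of cluster 1, with a median difference of -7.84 percentage points. Over all genes measured 5069 of 10263 were, with a median difference of 0.109.

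**Figure D3:**
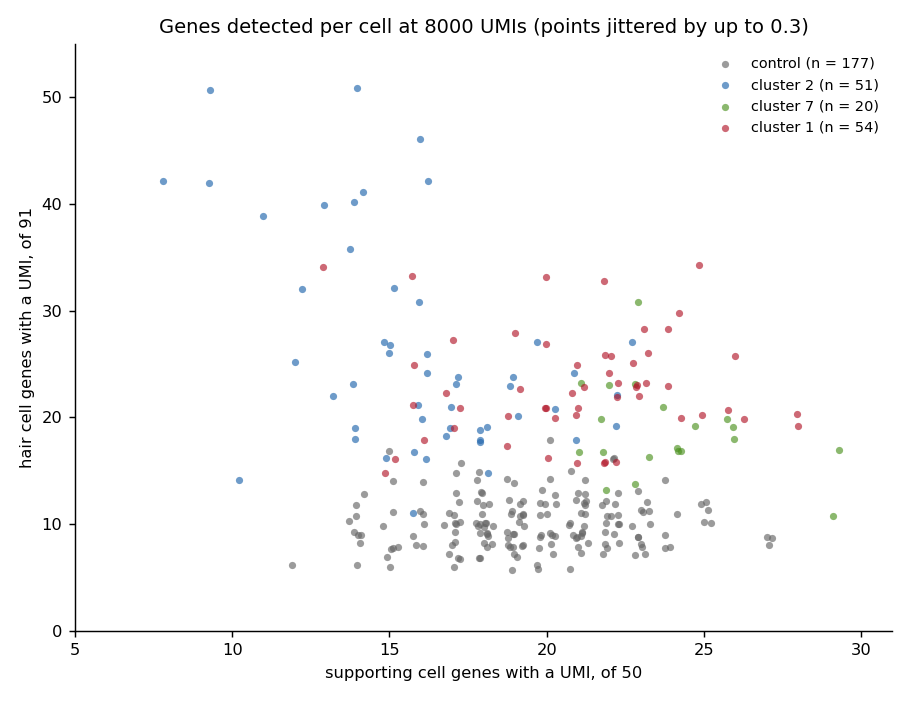
Number of hair cell genes (of 91) and supporting cell genes (of 50) with a UMI in each cell thinned to 8000 UMIs, for clusters 1, 2 and 7 and control cells. The median of hair cell genes was 22 in cluster 1 (15 to 34) and 10 in control cells (6 to 18), so the ranges overlap. The medians of supporting genes were 21.5 and 19. In hair cell genes 11 cells of cluster 2 lie above all of cluster 1.

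Genes of inner hair cells were mostly lower than in cluster 2, and defining genes of outer hair cells had 0 UMIs. Of 8 measured inner hair cell genes 5 were lower than in cluster 2 and 1 was higher, with a median of -1.70, beside 11.6% and 8.97% of all genes. Tbx2, the factor that sets the inner hair cell fate, was at 237 CPM against 188, and at 290 in control cells. Brip1 was at 118.3 against 415 CPM and Shtn1 at 136.9 against 251. The outer hair cell genes Slc26a5, the motor protein prestin, and Ocm, oncomodulin, had 0 UMIs in clusters 1 and 2. Bcl11b, a regulator of outer hair cells, had 1 UMI in cluster 1 against 33.9 CPM in cluster 2, and Insm1 had 2 UMIs. Of 6 measured outer hair cell genes 1 was lower and 1 higher.

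Part of the supporting cell genes was higher in cluster 1 than in cluster 2. Of 18 measured genes of the general list 8 were higher by 2-fold or more, 10 lay between and 0 were lower, with a median of 0.31 (0.49 in letter C and 0.70 in letter D), beside 8.97% higher and 11.6% lower among all genes. At 8000 UMIs 15 of the 18 were found in a larger share of cluster 1, by a median of 14.8 percentage points. Over all genes measured this held for 5142 of 10263, with a median of 0.109 points. Otog, otogelin of the tectorial membrane, was at 697 CPM (645 in letter C and 757 in letter D) against 77.5, with cells from 0 through 147.7 to 4359. Jag1, the Notch ligand of supporting cells, was at 274 against 72 CPM, and Slc1a3, a glutamate transporter, at 152.7 against 24.9. Sox9 was at 1019 CPM (931 and 1121) against 474 and was found in 100% of members against 80.4% of cluster 2 at 8000 UMIs. Sox21 was at 67.6 against 2.77 CPM. Sox2 had 17 UMIs in 10 members and 0 UMIs in cluster 2, and stood at 1.75 CPM in control cells, so this defining marker was near 0 in all 3 sets. S100a1, a calcium-binding protein of supporting cells, was at 9236 CPM against 7793. The connexin Gjb2 was at 788 against 748 CPM, and Gjb6 at 229 against 258.

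More restricted supporting cell types were marked unevenly, and the shares of all genes are again 8.97% higher and 11.6% lower. Of 13 measured pillar and Deiters cell genes 5 were higher than in cluster 2 and 3 were lower, with a median of 0.37. Cntn1 was at 326 CPM against 36.7 and Cryab at 1010 against 231, while Fgfr3 was at 9.02 against 63, and Lgr5, a receptor of Wnt-responsive supporting cells, at 317 against 776. Of 11 measured inner sulcus and tectorial membrane genes 6 were higher and 2 lower, with a median of 1.63 that was 1.07 in letter C, -0.47 in letter D and -0.34 with a minimum of 50 CPM. Ceacam16, a tectorial membrane protein, was at 53 CPM against 4.15, and at 834 in control cells. Of 7 measured genes of Hensen, Claudius and outer sulcus cells 4 were lower and 1 higher, with a median of -1.22. Slc26a4, the anion exchanger pendrin, was at 167.9 CPM (144.5 in letter C and 195 in letter D) against 393 and against 883 in control cells. Fst, a binder of activin, was at 9.02 against 166.8 CPM, and Bmp4 at 2.25 against 57.5.

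Among the 12 genes highest against cluster 2 alone were Mmp2, Slc43a3 and Tmprss6. Mmp2, a matrix metallopeptidase, was at 51.8 CPM (55.9 in letter C and 47.2 in letter D), with 1 UMI in cluster 2, 74.9-fold higher (13.1 to 2989). Slc43a3, a purine transporter, was at 84 CPM against 2.77, and Tmprss6, a serine protease, at 218 (212 and 225) against 11.1. At the other end Rasgrf1, an exchange factor for Ras, had 0 UMIs in cluster 1, at least 38.1-fold lower than the 64.4 CPM of cluster 2. Apoa4, an apolipoprotein, was at 5.07 against 146.1 CPM, and Fbln2, a matrix protein, at 11.3 against 258. Xirp2, an actin-binding protein of stereocilia, had 2 UMIs in cluster 1 against 41.5 CPM.

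Of the Notch pathway, the receptor Notch2 and the modifier Lfng were higher than in cluster 2. Of 18 measured genes 6 were higher in cluster 1 by 2-fold or more and 3 were lower, with a median of 0.43, beside 8.97% and 11.6% of all genes. At 8000 UMIs 13 of the 18 were found in a larger share of members, beside 5142 of 10263 genes. Of the receptors, Notch1 was at 648 CPM (645 in letter C and 652 in letter D) against 462, and Notch2 at 253 (254 and 252) against 106.6. Of the modifiers, Lfng was at 153.3 CPM (148.8 and 158.4) against 6.92, 22.1-fold higher (11.9 to 46.7). Of the targets, Hes5 was at 41.1 CPM against 2.77, but 11 members held all of it and 1 of them 38.4% of its UMIs. Heyl was at 641 against 497 CPM and at 64.5 in control cells. The ligands Jag1 and Jag2 were thus measured in the same cluster as the receptors and the targets. Against cluster 7, 3 of 17 measured Notch genes were higher and 4 lower, with a median of -0.10, beside 19.4% and 17.1% of all genes. There the log2 ratio was 2.02 for Notch2 and -0.46 for Lfng, so the higher Lfng held against cluster 2 alone.

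Against cluster 7, cluster 1 had higher levels of most hair bundle and synapse genes. Of 27 measured bundle genes 15 were higher by 2-fold or more and 1 was lower, beside 19.4% and 17.1% of all genes, with a median of 1.18. With genes at 0 UMIs in cluster 7 set to the limit of 3 counts the median was 0.69. Myo6 was at 1481 against 567 CPM, Triobp, which builds the rootlets of stereocilia, at 802 against 354, and Cib2 of the transduction complex at 245 CPM, 2.09-fold higher. Ptprq was at 221 against 55.6 CPM, and Whrn at 157.2 against 26.3. Of 16 measured synapse and channel genes 9 were higher and 2 lower, with a median of 1.39. Anxa4 was at 287 against 84.8 CPM, and Atp2b2, the calcium pump of stereocilia, at 133.5 against 23.4. Kcna10, a potassium channel, ran the other way at 19.7 against 93.6 CPM, and was at 116.99 in cluster 2.

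Part of the supporting cell genes was lower in cluster 1 than in cluster 7. Of 20 measured genes of the general list 6 were lower in cluster 1 and 1, Sparcl1, was higher, with a median of -0.53, beside 17.1% lower and 19.4% higher among all genes. Of the Sparcl1 UMIs of cluster 7, 48.75% were in 1 cell, and of its Otog UMIs 39.6%. Slc1a3 was at 152.7 CPM (186 in letter C and 114.9 in letter D) against 1521, 9.96-fold lower (8.58 to 11.6), with median cells at 75.4 and 1587. Otog was at 697 against 1612 CPM, Jag1 at 274 against 722 and Gjb6 at 229 against 553. Prox1, a homeobox factor of supporting cells, was at 2.25 CPM against 55.6. In cluster 7, Prox1 came from 2 cells. Of the pillar and Deiters genes 5 of 13 were lower and 1 higher. Tectb, beta-tectorin, was at 13 CPM against 986, and 25% of the cells of cluster 7 had a UMI of it at 8000 UMIs, 1 of them with 40.9% of its UMIs. The tectorial membrane genes were split, with 5 of 13 higher and 5 lower, and Tecta, alpha-tectorin, was at 1.13 against 128.7 CPM, of which 77.3% of the UMIs were in 1 cell. Supporting cell genes with a UMI at 8000 UMIs numbered 21.5 of 50 in the median member, 16 in cluster 2, 23.5 in cluster 7 and 19 in control cells.

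Ntrk2, a neurotrophin receptor, was at 179.2 CPM (237 in letter C and 112.5 in letter D) with 0 UMIs in cluster 7, at least 20.4-fold higher. Sytl2, a vesicle docking protein, was at 145.9 CPM, also with 0 UMIs there, and was at 545 CPM in control cells. Abcc8, a subunit of ATP-sensitive potassium channels, was at 59.7 and Slc7a11, a cystine transporter, at 50.1 CPM, both with 0 UMIs in cluster 7. Lower in cluster 1 were Sall1, a zinc finger factor, at 6.76 CPM against 673, and Anks1b, a scaffold protein, at 4.51 against 450. Slitrk3, an adhesion protein, and Otol1, an inner ear collagen, had 0 UMIs in cluster 1 against 155.02 and 125.8 CPM. Isl1, a LIM homeobox factor, was at 134.7 CPM against 509, and Kcnq3, a potassium channel subunit, at 118.9 against 497.

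**Figure D4:**
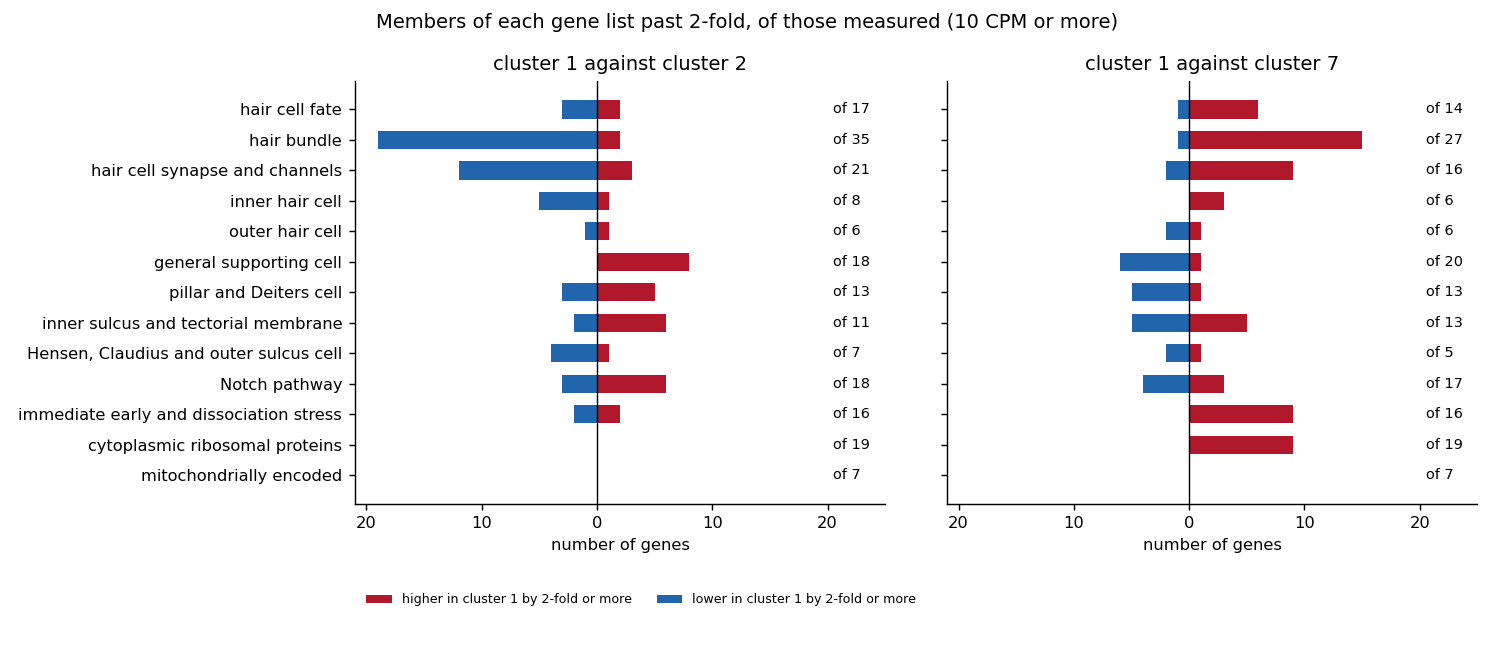
Number of genes of each list that were higher (red) or lower (blue) in cluster 1 by 2-fold or more, against cluster 2 (left) and cluster 7 (right), with the number measured beside each bar. Of the hair bundle genes 19 of 35 were lower and 2 higher against cluster 2, beside 11.6% and 8.97% of all genes. Against cluster 7, 15 of 27 were higher and 1 lower, beside 19.4% and 17.1% of all genes. With genes without UMIs in cluster 7 set to its limit, the bundle median log2 ratio there was 0.69, short of 2-fold. Of the general supporting cell list 8 of 18 were higher and 0 lower against cluster 2. Against cluster 7, 6 of 20 of that list were lower and 1 higher.

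Cluster 1 was not uniform, and Ccer2 and Otoa marked the range. Among 4460 genes with at least 50 CPM in cluster 1, Ccer2 was followed most closely over the 54 cells by Actn1, an actin crosslinker, and by Otoa, with Spearman correlations of 0.77 and 0.76. For Otoa the value was 0.75 in letter C and 0.81 in letter D, and it was -0.09 over the cells of cluster 2. Ndrg2 followed with 0.71, Inf2, an actin-nucleating formin, with 0.70 and Ace with 0.66. Cd24a, a surface glycoprotein, ran most strongly the other way at -0.72 (-0.73 and -0.70), followed by Socs2, a suppressor of cytokine signalling, at -0.66. Gata2, a zinc finger factor, was at -0.63. Atoh1 was followed most by Gfi1, and next to the allele genes by Egr1 at 0.47, and Vangl2, a planar polarity protein, ran most strongly against it at -0.60. Members high in Ccer2 and Otoa were thus low in Cd24a in both letters. These genes were picked from all genes searched, cells share plates and division by their totals, and no test was made.

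**Figure D5:**
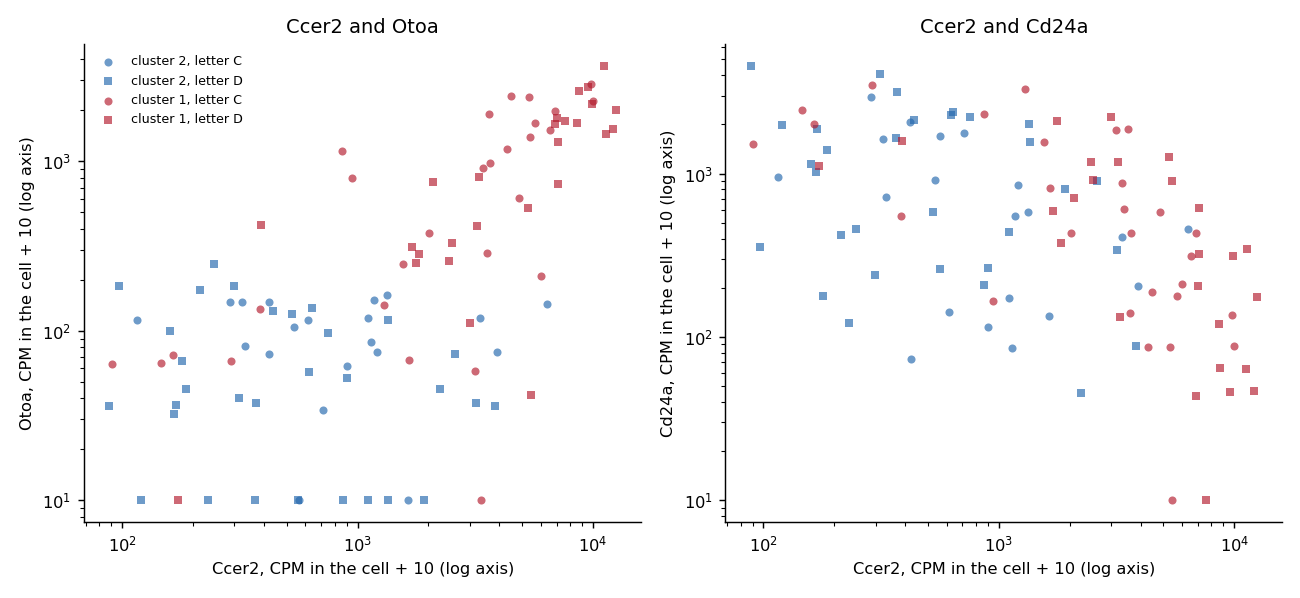
CPM + 10 of Ccer2 against Otoa (left) and Cd24a (right) in each cell of clusters 1 and 2, on log axes, with the letter as the point shape. In cluster 1 Otoa climbed with Ccer2 and Cd24a was low where Ccer2 was high, in letters C and D alike. In cluster 2, where Otoa was low (69.2 CPM), the Spearman correlation with Ccer2 was -0.09 for Otoa and -0.35 for Cd24a.

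With a minimum of 10 CPM, the letters within cluster 1 differed in about as many genes as clusters 1 and 2. Of 9937 genes with at least 10 CPM in a letter, 1087 were higher in letter C by 2-fold or more and 833 in letter D. The letters hold fewer UMIs than the clusters. With a minimum of 50 CPM the letters differed in fewer genes than clusters 1 and 2, in either direction. At that minimum 376 genes were higher in cluster 1 than in cluster 2 by 2-fold or more, and 316 were lower. Jun, an immediate early factor, was at 2606 CPM in letter C and 1561 in letter D, and Nr4a1 at 1050 and 619. Bpifa1, a secreted protein of the airway, was at 692 and 134.2 CPM, and in GAP cells of clusters with control cells at 5778. Hair cell genes with a UMI at 8000 UMIs numbered 23 in the median member of letter C and 20.5 in letter D, and supporting cell genes 22 and 21.

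Genes of stress, growth and other cells were measured beside these results. Of 16 immediate early genes 2 were higher and 2 lower than in cluster 2, near the 8.97% and 11.6% of all genes, with a median of 0.06 that was 0.31 in letter C and -0.38 in letter D. Their summed level was 9004 CPM in cluster 1 and 8849 in cluster 2, but the median cell was at 5254 against 1912 CPM, and 11 of the 16 were found in a larger share of members. Against cluster 7, at 4449 CPM, 9 were higher and 0 lower, with a median of 1.17, beside 19.4% higher and 17.1% lower among all genes. Ribosomal protein genes were higher than in cluster 7 in 9 of 19, with a median of 0.95, and 0 of 19 passed 2-fold against cluster 2. These lists and the depth moved with the contrast against cluster 7, and their part in it was not tested. The 7 measured mitochondrially encoded genes passed 2-fold in neither comparison. Of 14 arrest and p53 genes 2 were higher and 3 lower than in cluster 2, and 4 and 2 against cluster 7. Of the unfolded protein response 1 of 12 was higher and 4 lower than in cluster 2, and 2 of 13 higher and 3 lower than in cluster 7. Of 17 junction genes 2 were higher and 1 lower than in cluster 2, and 5 and 4 against cluster 7. These last 3 lists stand beside 8.97% higher and 11.6% lower among all genes against cluster 2, and 19.4% and 17.1% against cluster 7. Of 18 cell cycle genes 6 had 0 UMIs in cluster 1, and Ccnd1, cyclin D1, was the higher one at 129.03 CPM (184 in letter C and 66.5 in letter D) against 40.2 and 14.6. Cdkn1b, the cyclin-dependent kinase inhibitor p27, was at 310 CPM against 217 and 670.

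Markers of other cells, most of which a gate on EpCAM would leave out, were also summed. Leukocyte genes summed to 7.9 CPM, erythroid genes to 19.7, fibroblast genes to 54.7 and glial genes to 97.5, and Pecam1 of the endothelium had 0 UMIs. Of the leukocyte list 4 of 10 genes had 0 UMIs in cluster 1, of the fibroblast and vessel lists 5 of 10 each, and of the erythroid list 2 of 6. The vessel list was higher in cluster 1, at 215 CPM against 123.2 in cluster 2, 23.4 in cluster 7 and 25.5 in control cells. Rgs5, a pericyte gene, made 203 CPM of it in cluster 1, with 21.3% of its UMIs in 1 cell. Cluster 2 carried more fibroblast genes (240 CPM, Lum at 183 against 18) and cluster 7 more erythroid genes (1173 CPM, Hbb-bs at 848). The erythroid genes summed to 2721 CPM in letter C of cluster 7 and to 0 in letter D, and 97.9% of the Hbb-bs UMIs were in 1 cell. The part of these genes in the comparisons was not tested. Of 8 measured neuron-associated genes 6 were lower than in cluster 2, beside 11.6% of all genes, among them Ncam1 at 25.9 against 164.8 CPM. The median of -2.69, however, came to 0.21 with a minimum of 50 CPM and to 0.34 in letter D alone. Of the genes that mark the recombined and sorted cells, Fbxo2 was at 378 CPM against 556 in cluster 2, 336 in cluster 7 and 696 in control cells, and Epcam at 140 against 189, 219 and 190.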

How the data were processed

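Single cells were profiled by SMART-MATQ, and the authors deposited unnormalised UMI counts of 48440 genes in 360 cells and a list of cluster numbers and names. STAR, HTSeq and mm10 are named per the submitters' processing notes, while versions, annotation, strand setting and UMI collapse were not given in the sources used here. The cluster numbers and names were deposited by the authors and used unchanged. Cells had been sorted singly, and no doublet caller was run here.

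UMIs were summed per cluster and set as CPM. Genes with at least 10 CPM in either cluster were compared as log2 of the ratio of CPM + 1, and 2-fold or more was counted as higher or lower. Intervals (95%) were exact Poisson for levels, exact binomial for ratios and Clopper-Pearson for shares, and they cover counting error only. A count of 0 was bounded at 3 counts over the set. Shares of cells used 8000 UMIs drawn from each cell. Python 3.11.15, numpy 2.4.6, pandas 2.3.3, scipy 1.17.1, matplotlib 3.10.9, R 4.3.3 and edgeR 4.0.16 (for TMM scaling alone) were used, and the computation was checked on simulated data. The genes named were the 12 furthest in each direction against cluster 2, cluster 7 and both, with at least 20 CPM in the higher cluster, UMIs in at least 5 cells, no more than 33.3% of UMIs in 1 cell and the same direction in both letters where each has 5 cells. The 4 members of each list (8 of hair cell lists) with most UMIs in cluster 1, and the 12 genes with the highest CPM, could also be named. Other genes were chosen after their values were seen. The members and the lists were chosen with earlier results of these data known.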

Additional observations from a re-analysis of the deposited data

Results flagged for a closer look

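The 17 GAP cells to which the annotation gives no cluster enter none of the comparisons, and they held the allele genes above the level of control cells. Atoh1 was at 1109 CPM in their summed UMIs, against 0 UMIs in control cells. Pou4f3 was at 928 CPM, also against 0 UMIs. Gfi1 was at 296 CPM against 0.25. Ccer2 was at 3267 CPM against 1.25, between the 4659 CPM of cluster 1 and the 1048 CPM of cluster 2. The shallowest of these cells had 42346 UMIs, and the deepest cell of cluster 1 had 42818.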

How the results depend on the processing

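Counts of genes moved most with the filter and the pseudocount. The 921 genes higher than in cluster 2 became 518 with a pseudocount of 10 CPM, 376 with a filter of 50 CPM, 2080 with no filter and 1423 in letter C alone. The 1191 lower genes became 598, 316 and 3085 under the first 3 of these. Against cluster 7 the 1985 higher genes became 704 with the 50 CPM filter and 4407 with none, and the 1749 lower genes became 1145 with the larger pseudocount and 745 with the 50 CPM filter. At 4000 UMIs Ccer2 was found in 90.7% and Gfi1 in 55.6% of members, and with no thinning Gfi1 was found in 96.3% and Pou4f3 in 100%. Directions turned in 4 cases: Slc17a8 against cluster 7 (1.73 thinned, -2.13 otherwise), the inner sulcus median against cluster 2 (-0.34 with the 50 CPM filter) and the neuron-associated median against cluster 2 (0.21 with that filter, 0.34 in letter D alone). Of 184 gene ratios of 2-fold or more, 44 came under 2-fold in at least 1 alternative. The cause was not tested. With 1 sample per genotype, no error between animals can be given, and genes under 8.77 CPM in cluster 7 are not resolved.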

Other observations

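Genes of motile cilia, a list chosen after values were seen, were also measured in cluster 1. Of 22 measured genes 7 were higher than in cluster 2 and 2 lower, and of 19 measured against cluster 7, 11 were higher and 0 lower. Among all genes 8.97% were higher and 11.6% lower against cluster 2, and 19.4% and 17.1% against cluster 7. The letters ran opposite ways against cluster 2, with a median of -0.26 in letter C and 0.89 in letter D. The summed level was 1071 CPM in cluster 1 and 1075 in cluster 2 for letter C, and 850 and 464 CPM for letter D. Foxj1, the master factor of motile ciliogenesis, was at 74.9 CPM in cluster 1 (84.4 in letter C and 64.1 in letter D), at 27 in cluster 2 and had 0 UMIs in cluster 7. Rsph1, a radial spoke protein, was at 55.2 CPM against 11.8 and 8.77. The list summed to 968 CPM in cluster 1, 706 in cluster 2, 328 in cluster 7 and 233 in control cells.

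Mdk, the growth factor midkine, was at 2382 CPM in cluster 1 (2436 in letter C and 2320 in letter D), against 1139 in cluster 2, 1068 in cluster 7 and 21.5 in control cells. Miat, which encodes no protein, stood at 588 CPM against 486, 1208 and 0.25. Both genes were chosen after their values were seen.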
